A study of Mus musculus with 12 samples.

Results

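The genes described here encode the motors, microtubule proteins and membrane skeleton of axons. They were taken as all protein-coding genes whose symbols begin with Kif or Klc and a digit, Dync, Dynl, Dctn, Tuba, Tubb, Map1, Map2, Map4, Map6, Map7, Mapt, Stmn, Spta or Sptb, together with Ank1 to Ank3 and without the Map2k and Map4k kinases. The rule found 110 genes among 22028 protein-coding genes of the GENCODE M21 models of GRCm38. Of these, 36 could be measured by position and 30 were abundant enough to be tested. They were followed in bulk RNA sequencing of whole trigeminal ganglia of 8-week-old female C57BL/6J mice. The 12 libraries form 4 groups of 3.

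The first group was injured and stimulated, with a 1.5 mm keratectomy of a randomly chosen eye and electrical stimulation over the orbit at 300 µA and 20 Hz for 4 min a day over 14 days. The second was injured only and collected 2 weeks after the keratectomy. The third was stimulated in the same way without a wound. The fourth was left untreated and is called control. The study's design also describes sham sessions, with electrodes applied and no current, but labels no library as sham, so whether the unstimulated mice had electrodes or isoflurane is not known here. Injured mice also received ketamine, xylazine and an analgesic, and each stimulation session was run under isoflurane, so exposures that only some groups had cannot be told apart from wounding or current. The labels give neither the number of mice nor the side of the ganglion behind a library, so the spread behind each p-value is that between libraries, which may be technical.

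The trigeminal ganglion holds the cell bodies of the sensory neurons that innervate the cornea. Most proteins of an axon are made in the cell body, and cargo moves along microtubules built of alpha and beta tubulin: kinesins carry it outward to the nerve endings, and cytoplasmic dynein with its activator dynactin carries it back to the cell body. Microtubule-associated proteins stabilise the tracks, stathmins destabilise them, and a lattice of spectrin tied to membrane proteins by ankyrins supports the axon membrane.

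Levels are given in counts per 1e6 counts (CPM), scaled between libraries by the TMM method. Differences are log2 fold changes with their standard errors from edgeR's quasi-likelihood test, and a gene was called higher or lower at a Benjamini-Hochberg adjusted p under 0.05 over all 13053 counting intervals tested. The deposited counts were collected in intervals of GRCm39 gene models from reads placed on GRCm38 coordinates. A gene is therefore measured only through the stretch of its exons that happened to lie under an interval, and 38 of the 110 genes had no exon under any. Another 31 shared their intervals with other genes, 5 had under 100 bases of exon under an interval and 6 were too low to test. No alpha or beta tubulin was tested, and Tubb3, Stmn2, Map1b, Mapt, Kif5a and Dctn1 are not measured here. Tested were 6 of 21 transport kinesins, 2 of 4 kinesin light chains, 3 of 16 dynein genes, 1 of 6 dynactin genes, 5 of 13 microtubule-associated proteins, 1 of 5 stathmins, 4 of 6 spectrins, all 3 ankyrins and 5 of 11 mitotic kinesins. These roles were assigned by symbol family, so single genes may differ in function from the name of their group. Exon bases made up at least 50% of the interval for 8 of the 30 tested genes. For the other 22, intron or intergenic bases were the larger share, and reads there, on either strand, were counted too.

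Total counts ran from 7952798 to 10751547 per library, and the tested members took 0.538% to 0.924% of them. Sensory neuron markers were present in all libraries, with 10 of 19 measured. Libraries within a group were not alike in the balance of 5′ and 3′ counts. For 747 genes with a pair of intervals more than 500 bases apart, the log2 value of the interval far from the 3′ end minus the near one was taken. Each gene's difference was then centred on its own mean over the 12 libraries, so that 0 stands for that mean. The median of the centred differences was −0.31, 0.12 and −0.15 in injured and stimulated mice, −0.25, −0.27 and −0.15 in injured mice, 0.09, 0.07 and 0.31 in stimulated uninjured mice, and 0.22, 0.18 and 0.18 in controls. All 3 injured libraries lay below 0 and all 3 controls above it. Replicate 2 of the injured and stimulated group lay with the uninjured libraries, apart from its own replicates 1 and 3, and replicate 3 of the stimulated uninjured group was the highest of the 12.

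Because the direction of several genes depended on which exon was read, the stretches behind the clearest cases are shown first. They come from Dync1h1, the heavy chain that carries the motor of cytoplasmic dynein, and from Sptbn1, which encodes beta II spectrin. All lie in GRCm38 (GENCODE M21 transcripts), Dync1h1 on the plus strand of chromosome 12 and Sptbn1 on the minus strand of chromosome 11. Letters run 5′ to 3′ along the transcript. Capitals mark exon bases inside the counting interval, and small letters are neighbouring bases of the same exon.
Dync1h1 exon 63 of 77, chr12:110659090-110659264, part of the stretch centred 2521 bases from the 3′ end: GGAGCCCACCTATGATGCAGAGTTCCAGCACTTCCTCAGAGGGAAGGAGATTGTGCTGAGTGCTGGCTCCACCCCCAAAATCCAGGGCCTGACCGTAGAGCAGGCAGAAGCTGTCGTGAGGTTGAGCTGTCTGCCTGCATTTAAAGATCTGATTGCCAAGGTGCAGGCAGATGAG
Dync1h1 exon 38 of 77, chr12:110640514-110640656, 6494 bases from the 3′ end: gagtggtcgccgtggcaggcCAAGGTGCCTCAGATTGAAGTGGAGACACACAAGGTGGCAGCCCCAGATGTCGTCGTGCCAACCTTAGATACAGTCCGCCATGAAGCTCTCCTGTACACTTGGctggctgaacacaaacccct
Dync1h1 exon 33 of 77, chr12:110637133-110637340, part of the stretch centred 7130 bases from the 3′ end: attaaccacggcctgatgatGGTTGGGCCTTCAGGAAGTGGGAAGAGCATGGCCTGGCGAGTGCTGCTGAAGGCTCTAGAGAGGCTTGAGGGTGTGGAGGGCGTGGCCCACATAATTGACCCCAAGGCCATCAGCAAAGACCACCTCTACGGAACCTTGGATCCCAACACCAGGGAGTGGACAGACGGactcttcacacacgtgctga
Dync1h1 exon 26 of 77, chr12:110631620-110631803, 8844 bases from the 3′ end: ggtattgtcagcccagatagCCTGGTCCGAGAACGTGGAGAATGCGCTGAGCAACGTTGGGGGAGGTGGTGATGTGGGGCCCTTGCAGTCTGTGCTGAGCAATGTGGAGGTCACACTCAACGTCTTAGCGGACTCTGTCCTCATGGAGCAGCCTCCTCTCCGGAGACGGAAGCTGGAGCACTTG
Sptbn1 exon 35 of 36, chr11:30101613-30101655, part of the stretch centred 484 bases from the 3′ end: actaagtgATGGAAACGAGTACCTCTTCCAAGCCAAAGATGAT
Sptbn1 exon 2 of 36, chr11:30219579-30219726, with the start codon, part of the stretch centred 8142 bases from the 3′ end: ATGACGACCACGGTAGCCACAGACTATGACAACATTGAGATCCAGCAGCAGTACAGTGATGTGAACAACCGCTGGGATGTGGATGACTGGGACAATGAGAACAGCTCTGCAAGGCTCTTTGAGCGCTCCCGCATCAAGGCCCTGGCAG

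After injury, 6 of the 30 members were called higher than in controls (Map4, Stmn1, Dctn3, Kif21b, Klc1 and Map6) and 5 lower (Sptbn1, Sptan1, Kif1a, Kif1b and Dync2h1). Of all intervals tested, 19.3% were higher and 11.7% lower, against 20.0% and 16.7% of the members. The median log2 fold change was −0.24 over the members and 0.03 over all intervals. With stimulation of uninjured mice, 9 members were called higher (Map6, Map1a, Dync1h1, Sptbn4, Kif21b, Map4, Klc1, Dctn3 and Klc4) and 2 lower (Kif1b and Kif20b). The shares of all intervals were 18.2% and 11.7%, against 30.0% and 6.67% of the members, and the medians were 0.25 over the members and 0.03 over all intervals. Injured and stimulated mice differed from controls in 6 members called higher (Klc1, Dctn3, Kif21b, Map6, Klc4 and Map4) and 3 called lower (Sptbn1, Sptan1 and Kif1b), where 12.3% and 4.93% of all intervals were called. Against injured mice, injured and stimulated mice had no member called by edgeR in either direction, where 0.0383% of all intervals were higher and 1.5% lower. In that comparison 3 members had an unadjusted p under 0.05, the smallest adjusted p was 0.098 for Map4, and DESeq2 called 1 member lower. The comparisons with control share the 3 control libraries.

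Single libraries decided some of these counts. The shares of all intervals called in the same fits are not given here, so whether these changes were particular to the members was not tested. Without injured and stimulated replicate 2, 9 members were higher and 7 lower in that group than in controls, and without its replicate 3 the counts were 0 and 0. The count lower after injury was 3 without injured replicate 2 and 9 without injured and stimulated replicate 2 or stimulated uninjured replicate 3. The count higher with stimulation alone was 5 without replicate 2 of that group and 11 without injured and stimulated replicate 2.

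**Figure D1:**
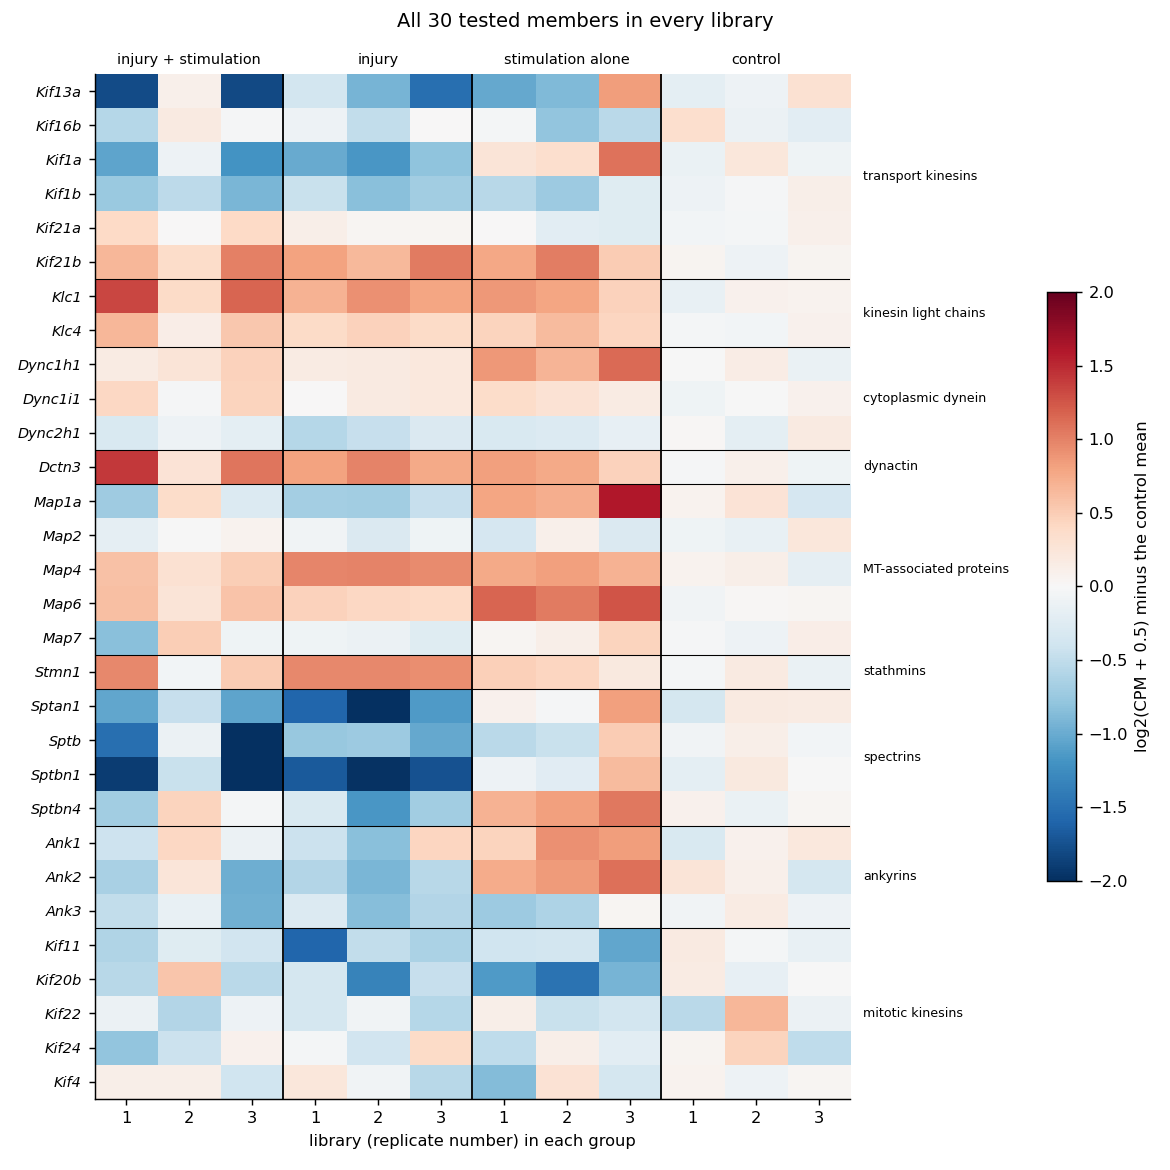
Each row is a tested member, grouped by role, and each column a library; colour is log2(CPM + 0.5) minus the mean of the 3 controls, with the scale ending at −2 and 2. Map6 was high in all 3 stimulated uninjured libraries, spectrins were low in the injured libraries, and replicate 2 of the injured and stimulated group stood nearer to the controls than replicates 1 and 3 in rows such as Klc1, Dctn3 and Kif13a.

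Of the 5 tested structural microtubule-associated proteins, Map6, Map4 and Map1a were called in at least 1 comparison. Map6 encodes the protein that keeps neuronal microtubules stable in the cold. Map6 had 66.9, 52.7 and 65 CPM in injured and stimulated mice, 60.7, 58.4 and 58 in injured mice, 98.6, 90.6 and 105 in stimulated uninjured mice, and 41.8, 44.5 and 45.2 in controls. All 3 stimulated uninjured libraries lay above the other 9 libraries, and the controls lay below the other groups. Against controls it rose with stimulation alone (log2 change 1.16 ± 0.13, adjusted p = 5.47e-05) and after injury (0.43 ± 0.13, adjusted p = 0.0234). It also rose in injured and stimulated mice against controls (0.49 ± 0.13, adjusted p = 0.0196) and did not pass the test against injured mice (0.06 ± 0.13, adjusted p = 0.919). The stimulation-alone call held without any 1 of the 12 libraries, at an adjusted p of at most 0.00089. The call after injury did not hold without any 1 of 10 libraries (adjusted p up to 0.093), the exceptions being replicates 1 and 2 of the injured and stimulated group. The call in injured and stimulated mice did not hold without any 1 of the 3 controls or without replicate 1 or 3 of its own group (adjusted p up to 0.12). Map6 was read through 214 coding bases inside an interval of 2870 bases, at chr7:99315689-99315902 in GRCm38.

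Map4, which encodes a microtubule-binding protein found in many cell types, was the most abundant member of its role group. It had 887, 722 and 828 CPM in injured and stimulated mice, 1155, 1175 and 1127 in injured mice, 993, 1036 and 949 in stimulated uninjured mice, and 615, 637 and 518 in controls. The 3 injured libraries were the highest, the controls the lowest, and no groups overlapped. Map4 rose after injury (log2 fold change 0.97 ± 0.14, adjusted p = 0.000591), with stimulation alone (0.75 ± 0.14, adjusted p = 0.00104) and in injured and stimulated mice against controls (0.46 ± 0.14, adjusted p = 0.0337). Against injured mice, the injured and stimulated mice had a log2 fold change of −0.50 ± 0.14, adjusted p = 0.0978, which did not pass the test. Without injured and stimulated replicate 1 it came to −0.57 and passed just under the threshold (adjusted p = 0.05 after rounding). The calls after injury and with stimulation alone held without any 1 of the 12 libraries. The call in injured and stimulated mice against controls did not hold without any 1 of 9 libraries (adjusted p up to 0.16), the exceptions being replicates 1 and 2 of the injured group and replicate 2 of the injured and stimulated group.

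Map1a encodes a microtubule-associated protein of mature neurons. Its counted stretch lay 9100 bases from the 3′ end and had 83.2, 176 and 113 CPM in injured and stimulated mice, 85.3, 84.1 and 98.9 in injured mice, 235, 227 and 415 in stimulated uninjured mice, and 142, 164 and 108 in controls. Stimulated uninjured libraries were the highest of all, with replicate 3 far above the other two, and injured libraries lay below the controls. Map1a rose with stimulation alone (log2 change 1.08 ± 0.26, adjusted p = 0.00451), a call that held without any 1 of the 12 libraries (adjusted p up to 0.035), and did not pass after injury (−0.63 ± 0.26, adjusted p = 0.0728). The fall after injury did pass without injured and stimulated replicate 1 or 2 or any 1 stimulated uninjured library, at −0.62 to −0.71 and an adjusted p of 0.0087 to 0.043. The other two members of the role group, Map2 (a dendritic and somatic microtubule protein) and Map7 (a recruiter of kinesin-1 to microtubules), were called in no comparison, with log2 fold changes of −0.17 and 0.22 with stimulation alone.

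**Figure D2:**
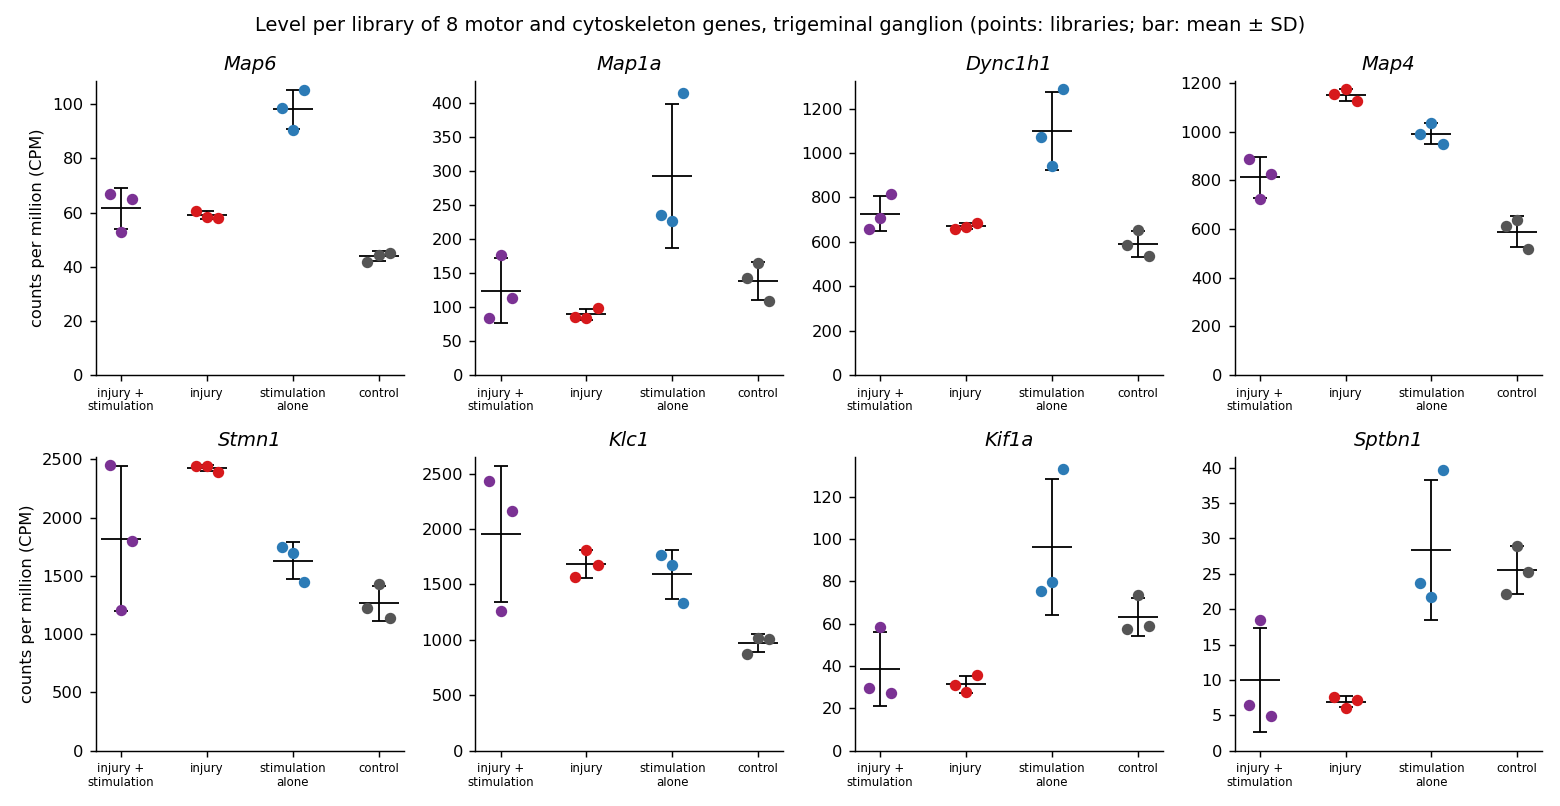
CPM of 8 members in each of the 12 libraries (points), with the mean and SD of each group of 3 (bars), on linear axes from 0. Map6, Map1a and Dync1h1 were highest with stimulation alone, Map4 was highest after injury, and the Kif1a and Sptbn1 stretches, 7213 and 8142 bases from the 3′ end, were low after injury.

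Among the motors that move toward the cell body, Dync1h1 showed the widest difference. Its main stretch had 658, 708 and 815 CPM in injured and stimulated mice, 657, 668 and 684 in injured mice, 1071, 942 and 1287 in stimulated uninjured mice, and 586, 652 and 536 in controls. All 3 stimulated uninjured libraries were above every other library. Dync1h1 rose with stimulation alone (log2 change 0.90 ± 0.15, adjusted p = 0.000525), a call that held without any 1 of the 12 libraries, and did not pass after injury (0.18 ± 0.15, adjusted p = 0.394) or in injured and stimulated mice against controls (0.30 ± 0.15, adjusted p = 0.192). Dync1i1, a dynein intermediate chain that binds cargo and dynactin, passed no test, with log2 fold changes between 0.13 after injury and 0.30 in injured and stimulated mice against controls. Dync2h1, the heavy chain of the dynein of cilia, fell after injury (log2 fold change −0.45 ± 0.14, adjusted p = 0.0236), a call lost without control replicate 1 or 3 or injured replicate 1 or 2 (adjusted p up to 0.11).

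The Dync1h1 exons shown above did not move together after injury. The stretch at 8844 bases, in exon 26, had 2.92, 11 and 4.37 CPM in injured and stimulated mice, 1.44, 1.70 and 2.36 in injured mice, 16.5, 12.6 and 22.8 in stimulated uninjured mice, and 7.54, 8.87 and 7.03 in controls. Its 3 injured libraries were all below the controls, and its stimulated uninjured libraries were all above them. It fell after injury (log2 fold change −2.10 ± 0.43, adjusted p = 0.00277) and rose with stimulation alone (1.15 ± 0.37, adjusted p = 0.0276). The stretches at 6494 and 7130 bases also fell after injury (−1.39 ± 0.40, adjusted p = 0.0154 and −1.27 ± 0.30, adjusted p = 0.00504), while the stretch at 2521 bases was not called (0.18 ± 0.15, adjusted p = 0.394). With stimulation alone the log2 fold changes of the same stretches were 0.91 ± 0.37 at 6494 bases and 0.74 ± 0.28 at 7130 bases, neither called, and 0.90 ± 0.15 at 2521 bases. All 4 stretches therefore had positive fold changes with stimulation alone, and 3 of 4 had called negative ones after injury.

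Dctn3, a small subunit of dynactin and the only tested gene of the complex with a Dctn symbol, had 779.7, 352 and 616 CPM in injured and stimulated mice, 512, 584 and 495 in injured mice, 516, 494 and 402 in stimulated uninjured mice, and 287, 314 and 277 in controls. The controls were the lowest 3 libraries, and replicate 2 of the injured and stimulated group was the lowest outside them. Dctn3 rose in all 3 comparisons with control: after injury (log2 fold change 0.86 ± 0.21, adjusted p = 0.00708), with stimulation alone (0.69 ± 0.21, adjusted p = 0.0223) and in injured and stimulated mice (0.99 ± 0.21, adjusted p = 0.00667). The stimulation-alone call did not hold without control replicate 1 or 3, stimulated uninjured replicate 1 or 2, or injured and stimulated replicate 3 (adjusted p up to 0.13). The call in injured and stimulated mice did not hold without their replicate 3 (adjusted p = 0.057).

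Of the kinesin light chains, which link kinesin-1 to its cargo, Klc1 was called in the same 3 comparisons as Dctn3 and Klc4 in 2 of them. Klc1 was read through 484 bases at its 3′ end, chr12:111794337-111794820 in GRCm38, and had 2437, 1264 and 2164 CPM in injured and stimulated mice, 1564, 1812 and 1677 in injured mice, 1762, 1672 and 1336 in stimulated uninjured mice, and 875, 1019 and 1009 in controls. The controls were the lowest 3 libraries, and the injured and stimulated group held both the highest library and one below all 3 injured libraries. Klc1 rose after injury (log2 fold change 0.80 ± 0.21, adjusted p = 0.00836), with stimulation alone (0.72 ± 0.21, adjusted p = 0.0143) and in injured and stimulated mice against controls (1.01 ± 0.21, adjusted p = 0.00531). A second stretch of Klc1, 1624 bases from the 3′ end, rose with stimulation alone (0.68 ± 0.14, adjusted p = 0.00219) and was not called after injury (0.28 ± 0.14, adjusted p = 0.149). Leaving out control replicate 1 or stimulated uninjured replicate 1 or 2 ended the call with stimulation alone (adjusted p up to 0.11), and leaving out replicate 3 of the injured and stimulated group ended its call against controls (adjusted p = 0.056). Klc4 was called higher with stimulation alone (0.51 ± 0.15, adjusted p = 0.0184) and in injured and stimulated mice against controls (0.47 ± 0.15, adjusted p = 0.0449), and just missed the threshold after injury (0.41 ± 0.15, adjusted p = 0.0504). The Klc4 stimulation-alone call did not hold without control replicate 1 or 2 or stimulated uninjured replicate 1 or 2 (adjusted p up to 0.15), and that in injured and stimulated mice without any 1 of 11 libraries (adjusted p up to 0.2), the exception being their replicate 2.

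The promoters of Klc1 and Dctn3 are shown because both genes were called higher in the same 3 comparisons and both promoters hold the cAMP response element TGACGTCA, in capitals. Map4, Map6 and Kif21b were called higher in these 3 comparisons too. The promoter of Map4 lacks the motif, and Map6 and Kif21b have no promoter window in the source used. The sequences are RefSeq's 300-base windows from 250 bases before to 50 bases after the annotated start, in GRCm38.p6, each 5′ to 3′ on the gene's strand.
Klc1, plus strand, chr12:111758618-111758917, motif beginning 33 bases before the start: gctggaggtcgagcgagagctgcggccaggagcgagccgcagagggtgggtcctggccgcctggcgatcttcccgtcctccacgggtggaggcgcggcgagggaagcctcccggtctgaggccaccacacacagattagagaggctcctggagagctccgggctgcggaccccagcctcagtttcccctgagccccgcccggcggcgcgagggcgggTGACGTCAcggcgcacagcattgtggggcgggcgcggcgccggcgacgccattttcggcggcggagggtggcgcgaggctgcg
Dctn3, minus strand, chr4:41723114-41723413, motif beginning 81 bases before the start: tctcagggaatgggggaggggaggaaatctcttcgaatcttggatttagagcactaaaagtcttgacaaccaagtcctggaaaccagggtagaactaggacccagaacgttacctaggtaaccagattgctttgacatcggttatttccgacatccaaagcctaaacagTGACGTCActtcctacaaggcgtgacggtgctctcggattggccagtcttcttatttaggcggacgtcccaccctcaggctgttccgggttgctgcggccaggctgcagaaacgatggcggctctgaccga
The motif, which reads the same on both strands, was in 588 of 32851 promoter windows (1.79%) of the RefSeq table, and in 2 of the 35 windows that matched 25 of the tested members by symbol. Among the 9 members called higher with stimulation alone, 7 had a window and 2 of the 7, through 2 of 11 windows, held it. By gene, 549 of 27025 (2.03%) of all those in the RefSeq table held it. Of the 82 members with a window, tested or not, 6 held it, among them the untested Kif17, Kif18a, Kif5c and Tubb2a. A match describes these letters and does not show that a factor bound there, and the pair was looked at with their values known.

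Transport kinesins did not share a direction. Kif21a, a kinesin-4 motor, was the most abundant. It had 517, 397 and 520.2 CPM in injured and stimulated mice, 428, 404 and 403 in injured mice, 397, 338 and 334 in stimulated uninjured mice, and 380.4, 381 and 421 in controls. All 3 stimulated uninjured libraries lay below the 3 injured ones, the controls overlapped each other group, and Kif21a was called in no comparison (0.06 ± 0.14, adjusted p = 0.769 after injury and −0.15 ± 0.14, adjusted p = 0.478 with stimulation alone) unless replicate 2 of the injured and stimulated group was left out, when it was called higher in that group than in controls (0.37, adjusted p = 0.032). Kif21b, its close relative, had 27.4, 22 and 34.6 CPM in injured and stimulated mice, 30.1, 27 and 35.3 in injured mice, 29.3, 35 and 24.5 in stimulated uninjured mice, and 17.6, 15.9 and 17.6 in controls. The controls were the lowest 3 libraries. Kif21b rose after injury (log2 fold change 0.85 ± 0.19, adjusted p = 0.00458), with stimulation alone (0.79 ± 0.19, adjusted p = 0.00542) and in injured and stimulated mice against controls (0.71 ± 0.19, adjusted p = 0.019). It was read through 1586 noncoding exon bases near the 3′ end. A pair of coding stretches 7147 and 7209 bases away had at most 5.15 CPM and was not called after injury (−1.14 ± 0.60 and −0.84 ± 1.12). The stimulation-alone call did not hold without replicate 2 of that group (adjusted p = 0.061), and that in injured and stimulated mice without any 1 of the 3 controls or their own replicate 3 (adjusted p up to 0.17).

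Kif1a and Kif1b encode kinesin-3 motors, of which Kif1a carries precursors of synaptic vesicles. Kif1b had 27.6, 32.2 and 24.5 CPM in injured and stimulated mice, 34.2, 25.9 and 28.5 in injured mice, 31.5, 28.1 and 39.5 in stimulated uninjured mice, and 43.5, 45.8 and 50.8 in controls. All 9 treated libraries were below the 3 controls. Kif1b fell after injury (log2 fold change −0.66 ± 0.17, adjusted p = 0.00842), in uninjured mice given stimulation (−0.50 ± 0.17, adjusted p = 0.0348) and in injured and stimulated mice against controls (−0.73 ± 0.17, adjusted p = 0.00895). The call after injury did not hold without injured replicate 2 (adjusted p = 0.055). That with stimulation alone did not hold without any 1 of the 3 controls, injured replicate 3 or stimulated uninjured replicate 1 or 2 (adjusted p up to 0.14). That in injured and stimulated mice did not hold without their replicate 3 (adjusted p = 0.058). A second Kif1b stretch, 5990 bases from the 3′ end of the transcript chosen for it, fell after injury (−1.03 ± 0.29, adjusted p = 0.0127). With stimulation alone it had a log2 fold change of 0.18 ± 0.28, adjusted p = 0.666. The lower value of stimulated uninjured mice was therefore seen at 1 of 2 stretches. On the gene this second stretch lies nearer the 3′ end than the main one, whose distance was taken to the end of another transcript. Kif1a, read through 102 coding bases 7213 bases from the 3′ end, had 29.8, 58.5 and 27.1 CPM in injured and stimulated mice, 30.8, 27.6 and 35.7 in injured mice, 75.3, 79.8 and 133 in stimulated uninjured mice, and 57.4, 73.3 and 58.8 in controls. Injured libraries were all below the controls and stimulated uninjured libraries all above them. Kif1a fell after injury (log2 fold change −1.01 ± 0.26, adjusted p = 0.00921), held without any 1 of the 12 libraries, and was not called with stimulation alone (0.61 ± 0.26, adjusted p = 0.0861). Kif13a and Kif16b, which move endosomes, passed no test.

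Stmn1 encodes stathmin, which binds free tubulin and promotes the shortening of microtubules. It had 2454, 1206 and 1799 CPM in injured and stimulated mice, 2446, 2440.3 and 2393 in injured mice, 1749.8, 1697 and 1449 in stimulated uninjured mice, and 1221, 1431 and 1142 in controls. The 3 injured libraries lay close together and above all controls and stimulated uninjured libraries, while injured and stimulated libraries reached from below the control mean to above the injured mice. Stmn1 rose after injury (log2 fold change 0.94 ± 0.21, adjusted p = 0.00369), held without any 1 of the 12 libraries, and was not called with stimulation alone (0.37 ± 0.21, adjusted p = 0.198). In injured and stimulated mice it was not called against controls (0.52 ± 0.21, adjusted p = 0.0882), and came to 0.73 (adjusted p = 0.00086), a call, without their replicate 2.

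Spectrins and ankyrins were measured mostly far from the 3′ end. Sptan1 encodes alpha II spectrin, the alpha chain of the axonal lattice. Its 198 exon bases, in an interval of 4255 bases and 7535 bases from the 3′ end, had 18, 27 and 17.7 CPM in injured and stimulated mice, 12.2, 8.60 and 16.8 in injured mice, 40, 36.9 and 66.8 in stimulated uninjured mice, and 29.4, 42.4 and 42.2 in controls. All 3 injured libraries were below every control and below every injured and stimulated library. Sptan1 fell after injury (log2 fold change −1.61 ± 0.27, adjusted p = 0.00118), held without any 1 of the 12 libraries, and fell in injured and stimulated mice against controls (−0.86 ± 0.27, adjusted p = 0.0346). The second call did not hold without control replicate 2 or 3 or injured and stimulated replicate 1 or 3 (adjusted p up to 0.12). Against injured mice, injured and stimulated mice had 0.75 ± 0.28, adjusted p = 0.251, which did not pass.

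Sptbn1 depended on the exon. The stretch over exon 2, 8142 bases from the 3′ end, had 6.47, 18.4 and 4.96 CPM in injured and stimulated mice, 7.54, 6.05 and 7.22 in injured mice, 23.7, 21.7 and 39.7 in stimulated uninjured mice, and 22.2, 29 and 25.3 in controls. Injured libraries were the lowest group, with replicates 1 and 3 of the injured and stimulated group at the same level and replicate 2 nearer to the controls. This stretch fell after injury (log2 fold change −1.88 ± 0.37, adjusted p = 0.00241) and in injured and stimulated mice against controls (−1.34 ± 0.36, adjusted p = 0.0181), the second call failing without control replicate 2 or 3 or injured and stimulated replicate 1 or 3 (adjusted p up to 0.095). The stretch near the 3′ end had 986, 604 and 904 CPM in injured and stimulated mice, 861, 896 and 779 in injured mice, 744, 682 and 609 in stimulated uninjured mice, and 575, 644 and 590.3 in controls. All 3 injured libraries were above the controls there, and it rose after injury (log2 fold change 0.49 ± 0.17, adjusted p = 0.0399). The same gene was thus called lower at exon 2 and higher near its 3′ end after injury. With stimulation alone neither stretch was called (0.16 ± 0.35, adjusted p = 0.771 at exon 2 and 0.17 ± 0.17, adjusted p = 0.493 near the 3′ end). Of the 719 annotated exon bases under the near stretch, 232 belong to the full-length transcript of 8461 bases, and of the 1503 under the far stretch 194 do.

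Sptbn4, the beta IV spectrin of axon initial segments and nodes, rose with stimulation alone (log2 change 0.88 ± 0.26, adjusted p = 0.0156), with 35.7 ± 4.54 CPM in stimulated uninjured mice against 19.4 ± 1.58 CPM in controls (mean ± SD, n = 3 each). Both of its stretches were called (0.83 ± 0.22, adjusted p = 0.00953 at 4090 bases from the 3′ end), and the call of the main stretch did not hold without control replicate 2 (adjusted p = 0.061). Sptb passed no test (−0.84 after injury).

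Ank3 encodes ankyrin G, which organises the axon initial segment. Its main stretch, 7734 bases from the 3′ end, had 18.8, 24.1 and 13.5 CPM in injured and stimulated mice, 21.9, 14.6 and 17.6 in injured mice, 15.9, 17.2 and 27.5 in stimulated uninjured mice, and 25.5, 30.1 and 24.8 in controls. The injured libraries were all below the controls, and the difference did not pass (−0.57 ± 0.25, adjusted p = 0.0847). It did pass, at −0.66 and an adjusted p of 0.018 to 0.047, without injured and stimulated replicate 2 or 3 or any 1 stimulated uninjured library. Stimulation alone was called lower without stimulated uninjured replicate 3 (−0.71, adjusted p = 0.033), and injured and stimulated mice against controls without their replicate 2 (−0.75, adjusted p = 0.02). A second Ank3 stretch, 1604 bases from the 3′ end, had 442, 281 and 388 CPM in injured and stimulated mice, 397, 379 and 355 in injured mice, 396, 415 and 399.5 in stimulated uninjured mice, and 258, 309 and 220.0 in controls. Every treated group was on average above the controls there, and it rose after injury (0.52 ± 0.17, adjusted p = 0.026), with stimulation alone (0.62 ± 0.17, adjusted p = 0.00996) and in injured and stimulated mice against controls (0.50 ± 0.17, adjusted p = 0.0497). Ank2, ankyrin B, was not called at its main stretch (−0.84 ± 0.41, adjusted p = 0.123 after injury and 0.98 ± 0.38, adjusted p = 0.0601 with stimulation alone) and fell after injury at a second stretch 2934 bases from the 3′ end (−1.17 ± 0.29, adjusted p = 0.00798). Ank1 was not called at its main stretch and rose with stimulation alone at a second stretch of 399 coding bases (0.84 ± 0.20, adjusted p = 0.00516).

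The kinesins grouped here as mitotic were near the limit of detection, as were the markers of dividing cells, of which 1 of 6 could be measured, at no more than 1.41 CPM. Kif24, the most abundant of them, had 1.65, 2.25 and 3.43 CPM in injured and stimulated mice, 3.11, 2.34 and 4.30 in injured mice, 2.09, 3.53 and 2.71 in stimulated uninjured mice, and 3.33, 4.55 and 2.11 in controls. The groups overlapped, and Kif24 was called in no comparison. Kif20b, at 0.441 to 3.32 CPM, was called lower with stimulation alone (−1.62 ± 0.59, adjusted p = 0.0485), which did not hold without any 1 of 8 libraries (adjusted p up to 0.14), namely the 3 controls, injured replicates 1 and 3 and all 3 stimulated uninjured libraries.

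The place of the counted exon moved with the difference after injury across the members. Distances run to the 3′ end of the transcript chosen for each stretch. Of the 14 members read less than 2000 bases from the 3′ end, 5 were called higher and 1 lower after injury, with a median log2 fold change of 0.10. The 1 called lower was Kif1b, whose second stretch lies nearer the end of the gene than the stretch used here. Of the 11 read at 4000 bases or more, 0 were called higher and 4 lower, with a median of −0.84. Spearman's rho between distance and fold change was −0.72 over the 30 members, a description, since they share libraries. The same held across 4261 named protein-coding genes, whose median log2 fold change was 0.47 under 1000 bases and −0.70 from 6000 bases, with rho −0.49. For injured and stimulated mice against controls, rho was −0.66 over the members. With stimulation alone no such slope was seen: rho was 0.15 over the members and −0.04 over all named genes, and the medians were 0.25 for near members and 0.34 for far ones.

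**Figure D3:**
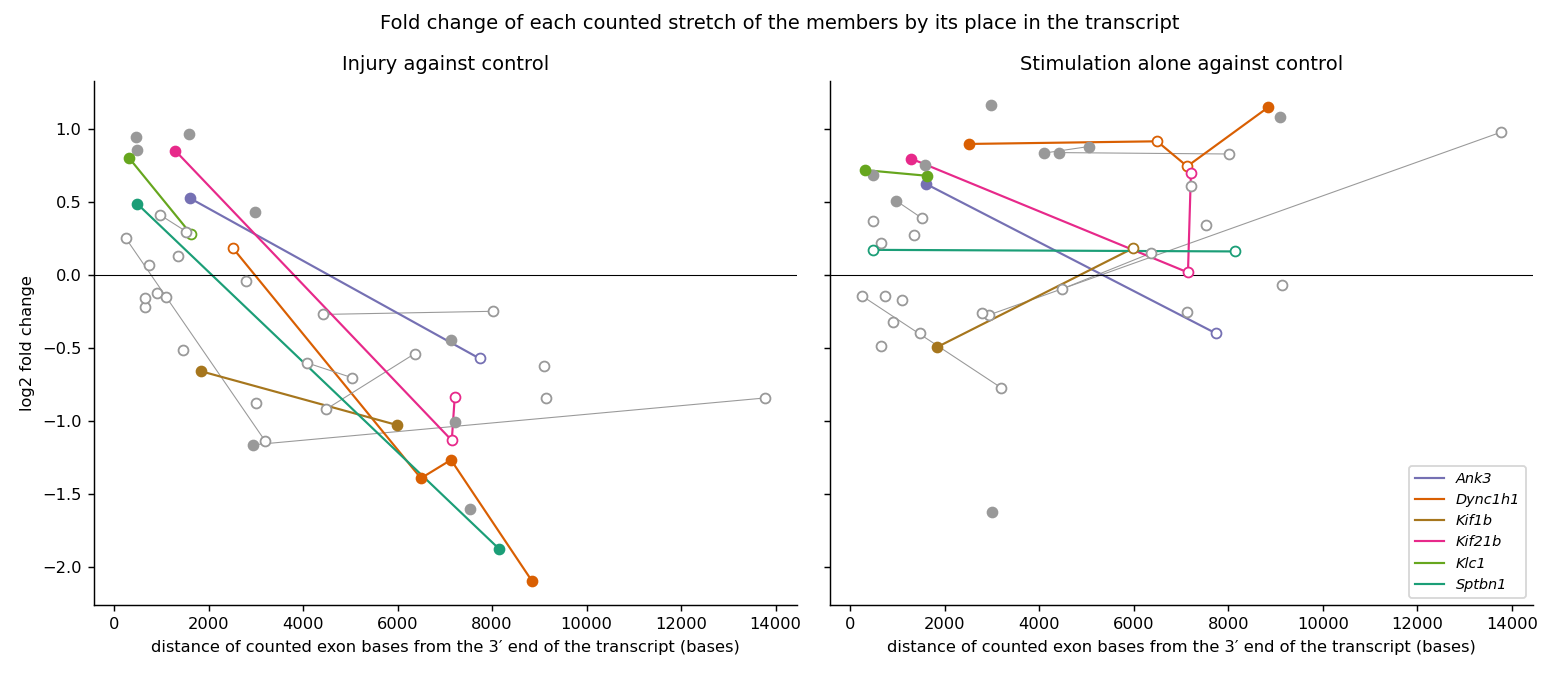
Log2 fold change against control of every tested stretch that belongs to a member (vertical axis) by its distance in transcript bases from the 3′ end (horizontal axis), after injury (left) and with stimulation alone (right). The 3′ end is that of the transcript chosen for each stretch, which can differ within a gene. Filled points were called, and lines join stretches of the same gene. After injury Dync1h1, Sptbn1, Kif21b and Ank3 pass from positive near the 3′ end to negative far from it, while with stimulation alone the 4 Dync1h1 stretches stay between 0.74 and 1.15.

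The balance of far and near counts within a gene could be followed in 12 members with a pair of stretches. Its mean was lower in injured mice than in controls in 10 of the 12, and all 3 injured libraries lay below all 3 controls in 5 (Dync1h1, Sptbn1, Ank3, Klc1 and Klc4). In Ank2 (−4.47 in injured mice and −4.90 in controls) and Kif13a (−1.65 and −2.18) the mean was higher in injured mice. The same counts over all 747 genes were not made. Over the 735 genes outside the members, the centred median was −0.25, −0.27 and −0.15 in injured mice and 0.22, 0.18 and 0.18 in controls. The shift was therefore not particular to the members. In Kif1b, counted here, the far stretch lies nearer the end of the gene than the near one. For Dync1h1 the log2 CPM of the 8844-base stretch minus that of the 2521-base stretch was −7.71, −5.97 and −7.47 in injured and stimulated mice, −8.63, −8.44 and −8.05 in injured mice, −6.00, −6.20 and −5.81 in stimulated uninjured mice, and −6.24, −6.16 and −6.21 in controls. For Sptbn1 the far minus near value was −7.20, −5.02 and −7.45 in injured and stimulated mice, −6.79, −7.16 and −6.71 in injured mice, −4.96, −4.96 and −3.93 in stimulated uninjured mice, and −4.68, −4.46 and −4.53 in controls. In both genes all 3 injured libraries, and replicates 1 and 3 of the injured and stimulated group, lay below all 6 uninjured libraries. Replicate 2 was among the uninjured libraries in Dync1h1, and in Sptbn1 it was just below the lowest of them. These values compare libraries and not levels of exons, since the stretches differ in length. RNA quality values are not used here, and whether RNA integrity, intron reads or isoform use differed between the groups was not tested.

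**Figure D4:**
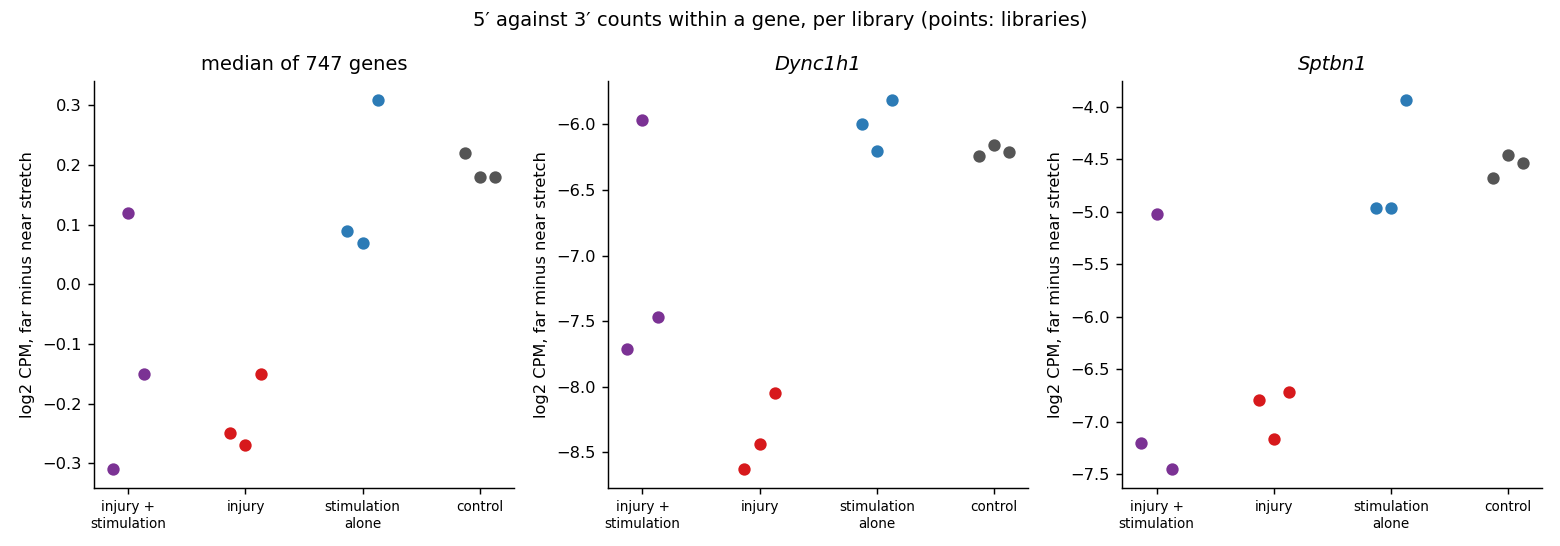
Log2 CPM of the far stretch minus the near stretch of the same gene in each library (points), for Dync1h1 (middle) and Sptbn1 (right). The left panel is the median of 747 genes, each centred on its own mean over the 12 libraries. Injured libraries are low in all 3 panels, and replicate 2 of the injured and stimulated group lies apart from its own replicates at a higher value.

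After trends with GC content, length and distance from the 3′ end were removed, an alternative added after the data were seen, 3 members were called higher after injury (Map6 at 0.65, Stmn1 at 0.74 and Map4 at 0.57 on the log2 scale) and 4 lower (Sptbn1 at −0.94, Sptan1 at −0.70, Kif1a at −0.58 and Kif1b at −0.46). Only 5944 intervals were tested in this setting, of which 696 were higher and 524 lower after injury. Dctn3 (0.18), Klc1 (0.09), Kif21b (0.37) and Dync2h1 (0.16) were no longer called. With stimulation alone Map6 (1.01), Map1a (1.00), Dync1h1 (0.74) and Map4 (0.40) were still called higher, and Klc1 (0.30), Dctn3 (0.31), Klc4 (0.01), Sptbn4 (0.37), Kif21b (0.44), Kif1b (−0.11) and Kif20b (−1.10) were not. Of all 5944 intervals, 821 were higher and 561 lower with stimulation alone. In injured and stimulated mice against controls, 6 of the 9 calls were lost (Kif1b, Kif21b, Klc4, Map4, Sptan1 and Sptbn1), where 513 of the 5944 intervals were higher and 175 lower. With trends of GC content and length alone removed, 19 of the 35 calls of members were lost. They included Map6 after injury (0.32, adjusted p = 0.1) and Map4 with stimulation alone (0.39, adjusted p = 0.053). Of the 11721 intervals tested in that setting, 1779 were higher and 1260 lower after injury, and 1327 higher and 907 lower with stimulation alone. Without a filter on low counts, Map6 was not called after injury (0.39, adjusted p = 0.17) or in injured and stimulated mice against controls (0.47, adjusted p = 0.095).

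The question of whether stimulation acted alike with and without a wound was put as the change with stimulation in injured mice minus that in uninjured mice. No member was called higher and 4 (13.3% of the members) were called lower by this measure, where 6.86% and 12.3% of all intervals were called. Of the 4, Map4 differed most, with a log2 fold change of −0.50 in injured mice and 0.75 in uninjured mice (difference −1.26 ± 0.20, adjusted p = 0.0017). Map6 had 0.06 in injured mice and 1.16 in uninjured mice (difference −1.10 ± 0.19, adjusted p = 0.00206). Kif21b had −0.14 and 0.79 in injured and uninjured mice (difference −0.93 ± 0.27, adjusted p = 0.0261), and Dync1h1 had 0.12 and 0.90 (difference −0.78 ± 0.22, adjusted p = 0.0207). For Map4, Kif21b and Map6 injury alone had also been called higher than control, so that the 2 treatments together gave less than the sum of each on the log2 scale. The differences of Map4 and Map6 held without any 1 of the 12 libraries. With GC and length trends removed they were still called at −0.76 (adjusted p = 0.028) and −0.81 (adjusted p = 0.029), while Kif21b (−0.45, adjusted p = 0.32) and Dync1h1 (−0.43, adjusted p = 0.23) were not. With the 3′ distance trend removed too, Map4 came to −0.74 (adjusted p = 0.0065), Map6 to −0.91 (adjusted p = 0.02) and Dync1h1 to −0.56 (adjusted p = 0.046), and Kif21b was not called (−0.39, adjusted p = 0.34). Dctn3 (−0.83, adjusted p = 0.025) and Stmn1 (−1.07, adjusted p = 0.004) were called lower without injured and stimulated replicate 1, and Kif21a higher (0.59, adjusted p = 0.025) without its replicate 2. That of Dync1h1 did not hold without control replicate 1 or 3 or any stimulated uninjured replicate (adjusted p up to 0.09), and was 0.61 and not called at its 8844-base stretch. That of Kif21b did not hold without any 1 of 7 libraries (adjusted p up to 0.15), namely the 3 controls, injured replicate 3, injured and stimulated replicate 2 and stimulated uninjured replicates 1 and 2.

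**Figure D5:**
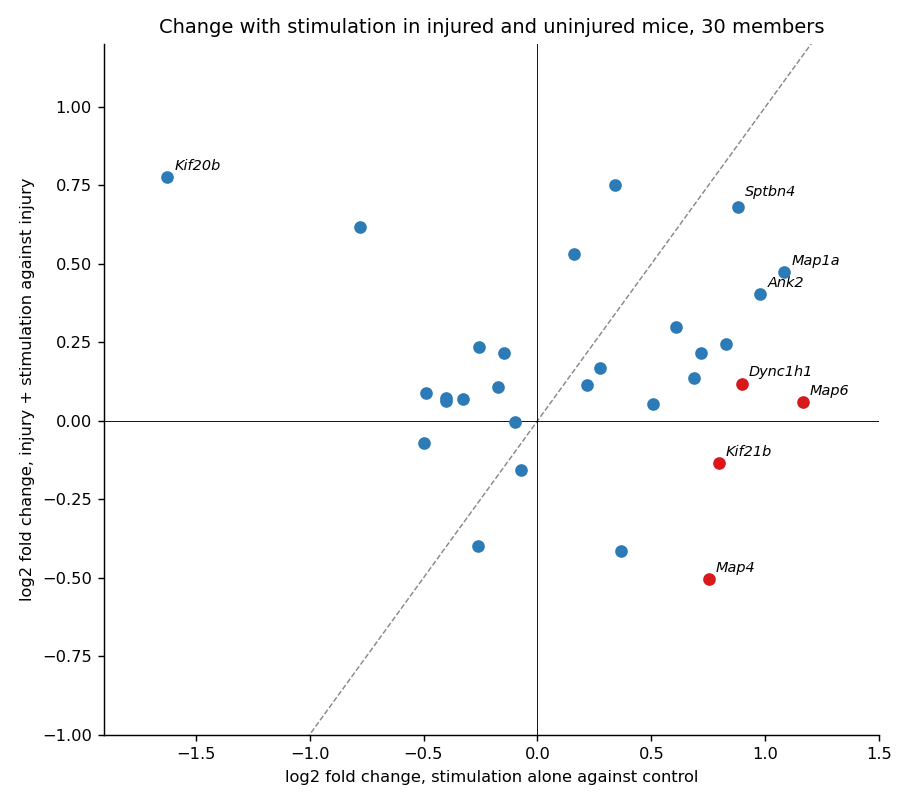
Each point is a tested member: the log2 fold change with stimulation in uninjured mice (horizontal axis) and in injured mice (vertical axis), with equal change on the dashed line; red marks members whose difference between the axes was called. Map4, Map6, Dync1h1 and Kif21b lie at 0.75 or more with stimulation alone and at or below 0.12 in injured mice.

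Partners of the motors were called in both directions, as were all intervals tested. Of all intervals, 18.2% rose and 11.7% fell with stimulation alone, and 19.3% and 11.7% after injury. Among adaptors and regulators of transport, 18 of 41 listed genes were tested, and 3 rose and 3 fell with stimulation alone. Hap1, which links huntingtin to motors, had a log2 fold change of 1.32 ± 0.34 (adjusted p = 0.0082), and Mapk8ip2 and Mapk8ip3, scaffolds that bind kinesin-1, had 1.19 ± 0.15 (adjusted p = 8.4e-05) and 0.66 ± 0.22 (adjusted p = 0.031). The capping proteins Capza2 (−1.02 ± 0.14, adjusted p = 0.00014) and Capza1 (−0.80 ± 0.18, adjusted p = 0.0031) and the dynactin subunit Actr10 (−0.51 ± 0.14, adjusted p = 0.01) fell. After injury 1 of the 18 rose and 5 fell, among them Mapk8ip3 at −0.64 ± 0.22 (adjusted p = 0.038).

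Of 51 genes of microtubule ends, severing and tubulin modification, 18 were tested, and 4 rose and 1 fell with stimulation alone. For this and the next lists, the shares of all intervals were again 18.2% higher and 11.7% lower with stimulation alone. After injury they were 19.3% and 11.7%. Clip2, a plus-end binding protein, had 1.1 ± 0.20 (adjusted p = 0.00081), the tubulin deacetylase Sirt2 had 0.81 ± 0.13 (adjusted p = 0.00039), Dclk2 had 0.69 ± 0.23 (adjusted p = 0.031) and the plus-end protein Clasp1 had 0.68 ± 0.14 (adjusted p = 0.0017), while Clasp2 had −0.80 ± 0.29 (adjusted p = 0.044). After injury 2 rose and 3 fell in this list. Of 7 intermediate filament genes 3 were tested: Nefm, the medium neurofilament, rose with stimulation alone (1.28 ± 0.17, adjusted p = 0.00012), and after injury Vim rose (0.81 ± 0.20, adjusted p = 0.0076) and Dst, which links filaments and was read 10256 bases from the 3′ end, fell (−1.36 ± 0.34, adjusted p = 0.0073). Of 21 partners of spectrin and actin 8 were tested: 3 rose and 0 fell with stimulation alone, and 2 rose and 2 fell after injury. Pfn1, profilin, was higher in both, with 0.93 ± 0.23 (adjusted p = 0.0055) with stimulation alone and 1.27 ± 0.23 (adjusted p = 0.0015) after injury.

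Markers of cell types moved with the groups. The 10 measured sensory neuron markers summed to 6931 to 12346 CPM in injured and stimulated mice, 8085 to 9654 CPM in injured mice, 9119 to 10935 CPM in stimulated uninjured mice and 5542 to 6346 CPM in controls. With stimulation alone 6 of these 10 rose and 1 fell, the median log2 fold change being 0.63, and after injury 3 rose and 1 fell, with a median of 0.09. Of all intervals tested, 18.2% rose and 11.7% fell with stimulation alone, and 19.3% and 11.7% after injury. After injury 5 of 5 measured markers listed for Schwann cell myelin (Cnp, Fa2h, Mag, Mal and Prx) and 4 of 4 of oligodendrocytes also rose. So did 4 of 7 of meninges and fibroblasts and 3 of 4 of macrophages. Of 4 satellite glia markers 1 rose and 2 fell. With stimulation alone 4 of 5 Schwann cell myelin markers rose, 1 satellite glia marker rose and 3 of 4 fell (median −0.85), and 2 markers each of macrophages and of meninges and fibroblasts fell. In injured and stimulated mice against injured mice, where Map4 had its log2 fold change of −0.50, 4 of 4 oligodendrocyte, 4 of 5 Schwann cell myelin, 5 of 7 meninges and fibroblast and 4 of 4 macrophage markers fell. Of all intervals, 1.5% fell in that comparison. The Schwann cell myelin markers summed to 3412 to 6524 CPM in injured and stimulated mice, 6709 to 8512 in injured mice, 5004 to 5364 in stimulated uninjured mice and 3184 to 4155 in controls. Those of meninges and fibroblasts summed to 7103 to 8597 CPM in injured and stimulated mice, 25000.3 to 26024.5 in injured mice, 3511 to 8033 in stimulated uninjured mice and 7939 to 8762 in controls. In both lists the summed value of the injured libraries was above all others. Cnp, Fa2h, Mag and Mal are also myelin genes of oligodendrocytes, so the first list does not single out Schwann cells. In Prx, the most abundant of its 5 genes, the treated groups overlapped. Prx had 4096, 1767 and 2400 CPM in injured and stimulated mice and 2750, 4817 and 2672 in injured mice. It had 3328, 2948 and 3427 in stimulated uninjured mice and 1693, 2322 and 1659 in controls. Most of the meninges and fibroblast sum was Ptgds, with a mean of 21985.4 CPM in injured mice and 5226.1 in controls. Dcn, the next largest, overlapped, with 2945, 3175 and 3553 CPM in injured mice and 2659, 3557 and 2641 in controls. The part of these shifts in the values of the motor and cytoskeleton genes was not tested. In whole tissue, fewer cells of a type and less RNA per cell cannot be told apart.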

How the data were processed

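Gene counts for 12 trigeminal ganglion libraries were used as the authors deposited them: whole numbers for 56941 gene identifiers a library. Per the file headers, they were made with featureCounts 2.0.6 on Ensembl GRCm39 models, unstranded, with paired input, reads counted singly and reads allowed in several overlapping genes. The submitters' processing notes also list FastQC, Salmon 1.10.2 and DESeq2. For the aligner, its version and genome build: not given in the sources used here. Intervals over GRCm38 exons held 98.6% to 99.3% of nuclear counts, so genes were named by GRCm38 position (GENCODE M21): an interval over exons of that gene alone, at least 100 bp of them, and the interval with most.

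All 12 libraries entered 1 edgeR 4.0.16 quasi-likelihood fit (TMM, filterByExpr, robust), with Benjamini-Hochberg adjustment over 13053 intervals and a biological coefficient of variation of 0.235. Errors are standard errors for fold changes and SD of 3 libraries for levels. Log2 CPM used a prior count of 2. Alternatives included DESeq2 1.42.0, RLE scaling, leave-one-out fits and splines of 5 degrees of freedom for GC, length and 3′ distance. The fit was tested on simulated data. Software was R 4.3.3 with limma 3.58.1, and Python 3.11.15 with matplotlib 3.10.9, pandas 2.3.3 and numpy 2.4.6.

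Members and lists were chosen with earlier results of these data known. Values in every library are given for up to 6 called members with the smallest p in each comparison, for the most abundant tested member of each role and for textbook axon genes, and Kif1a and second stretches of genes were added after their values were seen.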

Additional observations from a re-analysis of the deposited data

Results flagged for a closer look

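The change with stimulation differed between injured and uninjured mice for 4 members, by the test of that difference in edgeR with Benjamini-Hochberg adjustment. These 4, all called lower, were 13.3% of the tested members, near the 12.3% of all intervals called lower by this test. Map4 differed by −1.26 on the log2 scale (adjusted p = 0.0017), being lower with stimulation in 3 of 3 injured libraries and higher in 3 of 3 uninjured libraries than in all their unstimulated counterparts. Map6 differed by −1.10 (adjusted p = 0.0021), Kif21b by −0.93 (adjusted p = 0.026) and Dync1h1 by −0.78 (adjusted p = 0.021). With GC and length trends removed, Kif21b (−0.45, adjusted p = 0.32) and Dync1h1 (−0.43, adjusted p = 0.23) were no longer called. Sensory neuron markers, summed, were higher in all stimulated uninjured libraries than in all controls, and overlapped between injured and stimulated mice and injured mice. By the same test, 3 of 5 Schwann cell myelin and 4 of 4 oligodendrocyte markers were called lower. Of 7 meninges and fibroblast markers 2 were called higher and 2 lower, and of 4 satellite glia markers 1 higher and 1 lower. Of 4 macrophage markers 1 was called lower, and of 10 sensory neuron markers 1. The part of these markers in these differences was not tested.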

How the results depend on the processing

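Depths of 7952798 to 10751547 counts and exon coverage limit the members: 30 of 110 could be tested, and those under 3 CPM had standard errors above 0.4. Scaling by RLE left each named gene's direction and call as they were, and gave 1 member higher for the interaction. With DESeq2, 1 was lower for stimulation after injury, 5 lower for injured and stimulated mice against controls and 1 higher for the interaction. Without a filter, 1 was higher for stimulation after injury, 0 lower for stimulation alone and 5 lower for injured and stimulated mice against controls. With only the groups compared, 10 were lower after injury and 2 higher in injured and stimulated mice against controls. With at least 300 bp of exon, 3 were lower after injury, since Kif1a (102 bases) and Sptan1 (198 bases) fall under that limit. For this and the other settings without trend removal, the shares of all intervals called are not given here. With GC and length trends removed, 2 were higher after injury, 5 higher and 0 lower with stimulation alone, and 2 lower for the interaction. Of the 11721 intervals tested in that setting, 1779 were higher after injury, 1327 higher and 907 lower with stimulation alone, and 387 lower for the interaction. With the 3′ distance trend removed too, added after seeing the data like the nearest and farthest interval, 3 were higher after injury, 0 lower with stimulation alone and 0 lower in injured and stimulated mice against controls. Of the 5944 intervals tested there, 696, 561 and 175 were called in these directions. Kif21a with stimulation alone came to 0.40.

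With all intervals of a gene summed, 1 was lower with stimulation alone and 1 in injured and stimulated mice against controls. Summed and nearest intervals gave Ank3 0.43 and 0.52 and Sptbn1 0.42 and 0.49 after injury, Ank3 0.55 and 0.62 with stimulation alone, and Sptbn1 0.41 and 0.46 in injured and stimulated mice against controls, where the nearest gave Ank3 0.50. The farthest interval gave 1 lower with stimulation alone and 2 lower for the interaction, Dync1h1 −2.10 and Kif21b −0.84 after injury, Kif1b 0.18 with stimulation alone, and Dync1h1 0.61 and Kif21b 0.35 for the interaction. These values were read from other exons of the gene or with them added. At the farthest interval, Kif21b after injury (adjusted p = 0.6) and Kif1b with stimulation alone (adjusted p = 0.67) were not called. Nor were Dync1h1 (adjusted p = 0.49) and Kif21b (adjusted p = 0.9) for the interaction. Summed Sptbn1 was not called after injury (adjusted p = 0.056). The cause of these changes was not tested.

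Leaving out 1 library gave 5 to 7 higher and 3 to 9 lower after injury, 0 to 1 and 0 to 1 for stimulation after injury, 5 to 11 and 0 to 2 for stimulation alone, 0 to 9 and 0 to 7 for injured and stimulated mice against controls, and 0 to 1 and 2 to 6 for the interaction. For these fits the shares of all intervals called are not given here. Replicate numbers did not pair libraries: 18 same-numbered pairs had correlations of −0.26 to 0.20. With the replicate number as a block, 0 members were lower with stimulation alone, and 4 of 35 calls were lost: Kif1b (adjusted p = 0.054) and Kif20b (0.074) with stimulation alone, and Map4 (0.063) and Klc4 (0.076) in injured and stimulated mice against controls. DESeq2 and RLE lost 0 of the 35.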
